A study of Arabidopsis thaliana with 12 samples.

Results

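High formaldehyde was compared with clean air in the same exposure chamber, in rosette leaves of wild-type Arabidopsis thaliana of the ecotype Columbia. The comparison takes 6 of the 12 arrays of the study, chosen by their titles: the 3 from high-exposure plants and the 3 from clean-air plants. It asks which leaf transcripts differed after a short exposure to a high concentration of the gas. Among the genes with the largest rises were AT5G51440 and AT2G29500, for small heat shock proteins, AT2G41730, AT2G21640 and the glycosyltransferase gene UGT73C1, and 10 of the 25 genes with the largest rises were not above background in clean air. Among those with the largest falls were TBL26, AT1G68600, the lectin gene JAL23 and the sucrose transporter gene SWEET13.

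Every plant was 7 weeks old, had stood in constant light at 24 °C for 72 h, and was treated for 150 min. The clean-air plants were ventilated with air holding less than 0.04 ppm formaldehyde and the high-exposure plants with air at 14 to 16 ppm. Further plants received 1 to 2 ppm in the chamber (low exposure) or stayed outside it in air below 0.08 ppm, and their values are set beside the others where they bear on a gene. RNA from about 100 mg of leaf per plant was hybridised to 1 Affymetrix ATH1 array per plant. The sources used here did not give the chamber run of each plant, so chamber run and condition cannot be told apart. The p-values rest on the spread between plants within a condition, pooled over all conditions, with the plants outside the chamber included. If the 3 plants of a chamber condition shared 1 run, these p-values do not cover differences between runs. A whole leaf was sampled, so fewer cells of a type and less RNA per cell cannot be told apart.

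Formaldehyde is a small reactive aldehyde that forms adducts and cross-links with proteins, nucleic acids and thiols. Plants are known to oxidise it through its spontaneous conjugate with glutathione to formate, which formate dehydrogenase converts to carbon dioxide, and to feed its carbon into folate-bound one-carbon units. Misfolded proteins release heat shock factors from chaperones, and these factors then switch on genes for small heat shock proteins and other chaperones, while electrophiles are known to induce glutathione transferases and glycosyltransferases.

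Levels are log2 values per probe set, and differences are high exposure minus clean air with the standard error (SE) of a limma fit. A probe set was tested if it was above a log2 level of 4 on at least 3 of the 12 arrays, and a probe set counted as changed, or called, where the p adjusted by the Benjamini-Hochberg method was under 0.05. Of 13874 probe sets tested, 7337 were called, which is 52.9%. Rises made up 3157 probe sets (22.8% of those tested) and falls 4180 (30.1%). The values of both groups did not overlap at 8722 probe sets (62.9%). Counts for any group of genes below stand against these shares. Scaling the arrays to the spike-in controls bioB, bioD and cre lowered the share of calls that were rises from 43.0% to 32.6%. It moved the median difference over everything tested from -0.10 to -0.27. The spike-in control bioC was left out of the scaling. It read 6.27 to 6.78 in clean air and 7.10 to 7.49 at high exposure (log2). A single gene name was available for 7480 of the tested probe sets, so the gene groups are incomplete.

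**Figure D1:**
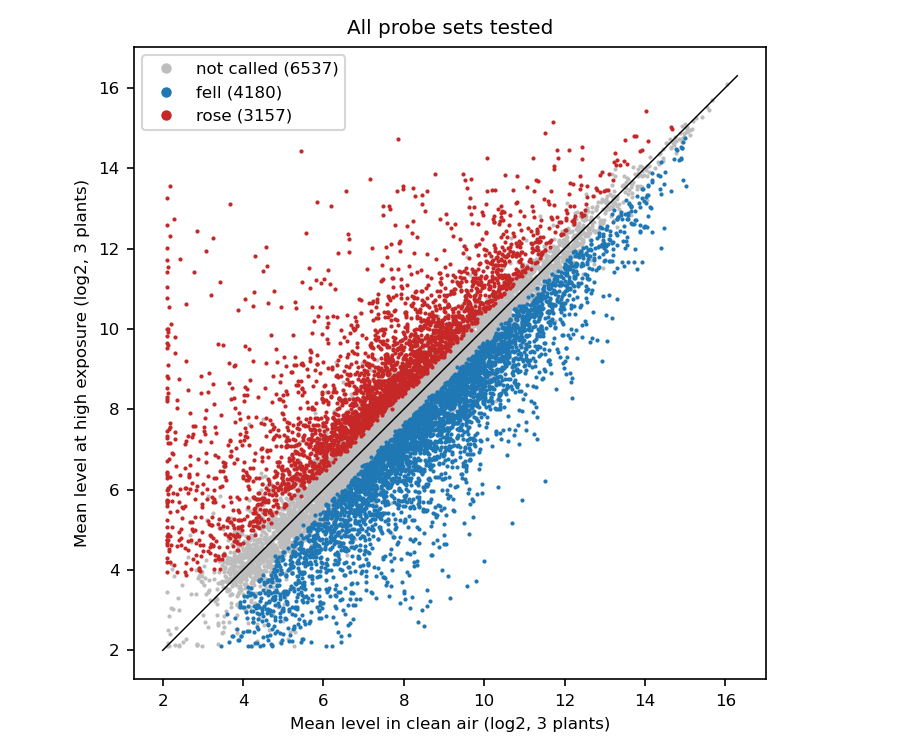
Mean level at high exposure (vertical axis, log2, 3 plants) against mean level in clean air (horizontal axis, log2, 3 plants) for the 13874 probe sets tested; the line marks equal levels. Called rises (3157) and falls (4180) lie on both sides, and the points farthest from the line are rises from the lowest clean-air levels.

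Some arrays stood apart within their group. Clean-air replicate 3 read high at several genes known to respond quickly to handling and wounding, among them CML37, CML38, STZ and PUB23, and high-exposure replicate 1 had the smallest rise at several induced genes. The 3' minus 5' signal of control transcripts, which increases as RNA degrades, was 1.17 to 1.27 in clean air and 1.41 to 1.83 at high exposure (log2), with the highest value in high-exposure replicate 1. Its part in the results was not tested. The leaf marker RCA read 15.01 ± 0.11 in clean air and 14.75 ± 0.08 at high exposure (SD, n = 3), and the root marker PYK10 was at the lowest deposited value of 2.11 on all 6 arrays. Most other marker genes listed had no named probe set, so each cell type rests on 1 gene, and xylem and epidermis had none. The trichome gene TRY read 5.33 ± 0.94 in clean air and 3.03 ± 0.28 at high exposure. The latter is below background, so the size of its fall is not exact. SWEET11 of the phloem read 12.86 ± 0.16 and 12.07 ± 0.45. The guard cell gene FMA read 5.78 ± 0.24 and 5.35 ± 0.55 and was not called (adjusted p = 0.17), and AUR1 of dividing cells, at 3.34 ± 0.44 and 3.53 ± 0.17, was not above background on average in either group.

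The change reached both ends of the detection range. At 230 probe sets the signal was above 4 on all high-exposure arrays and at or below 4 on all clean-air arrays, and at 220 the reverse held. Of the first set the median level at high exposure was 6.02, the highest was 13.55, and 49 members averaged above 8. The reverse set had a median of 5.24 in clean air and a highest level of 9.58, and 9 of its members averaged above 8. Of the 230 probe sets, 34 were also above 4 on all low-exposure arrays. Of the 220, 44 were also at or below 4 on all of them. Large changes were mostly rises: with values below 4 raised to 4, 147 probe sets rose and 32 fell by at least 16-fold. Of 562 probe sets with a mean level above 12 over the 12 arrays, 72 rose (12.8%) and 200 fell (35.6%).

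AT5G51440, which encodes a mitochondrial small heat shock protein, read 2.22, 2.16 and 2.16 in the clean-air plants and 13.48, 13.63 and 13.54 in the high-exposure plants. It was thus not above background in any clean-air plant and far above it in every exposed one, a rise of at least 749-fold (adjusted p = 2.58e-11). AT2G29500, a cytosolic class I small heat shock protein, read 2.91, 2.89 and 2.75 against 11.66, 12.67 and 12.98, at least 346.5-fold higher. AT1G53540, of the same class, was at 2.11 on all clean-air arrays and read 9.74, 12.07 and 12.44 at high exposure. It was at least 171-fold higher. High-exposure replicate 1 was its lowest value, and without that plant the bound was at least 306-fold.

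Small heat shock proteins hold unfolded proteins until ATP-driven chaperones refold them. AT1G54050, a class III small heat shock protein, was already measurable in clean air at 6.08, 6.50 and 7.28 and read 11.43, 12.81 and 12.86 at high exposure, a difference of 5.74 ± 0.50. Hsp70-2, of the chaperones that bind and release unfolded stretches, read 9.44, 9.26 and 8.51 in clean air and 12.42, 12.84 and 12.62 at high exposure. Its groups did not overlap, and it rose by 3.56 ± 0.32 (adjusted p = 7.53e-06).

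Co-chaperones direct these chaperones to clients. Hop3, which links HSP70 with HSP90, read 2.62, 2.62 and 2.50 against 10.00, 10.86 and 11.03, at least 98.99-fold higher. Fes1A, a nucleotide exchange partner of HSP70, read 7.01, 6.36 and 6.55 against 12.09, 12.14 and 12.49, a rise of 5.60 ± 0.24. Among proteins with a DnaJ domain, which stimulate HSP70, AT1G71000 was at 2.11 on all clean-air arrays and read 11.36, 10.51 and 11.28 at high exposure. AT2G20560, also with this domain, read 5.01, 5.60 and 6.30 against 11.15, 11.51 and 11.92. ATJ1, the only tested DnaJ gene found by its symbol, was not called, at 3.99, 4.09 and 3.66 against 4.45, 4.36 and 3.96 (0.34 ± 0.25, adjusted p = 0.262). AT5G48570, a prolyl isomerase of the FKBP type, rose by 5.51 ± 0.36 from 7.87, 8.01 and 8.05. Apart from ATJ1, each of these genes was lower in every clean-air plant than in every exposed one.

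**Figure D2:**
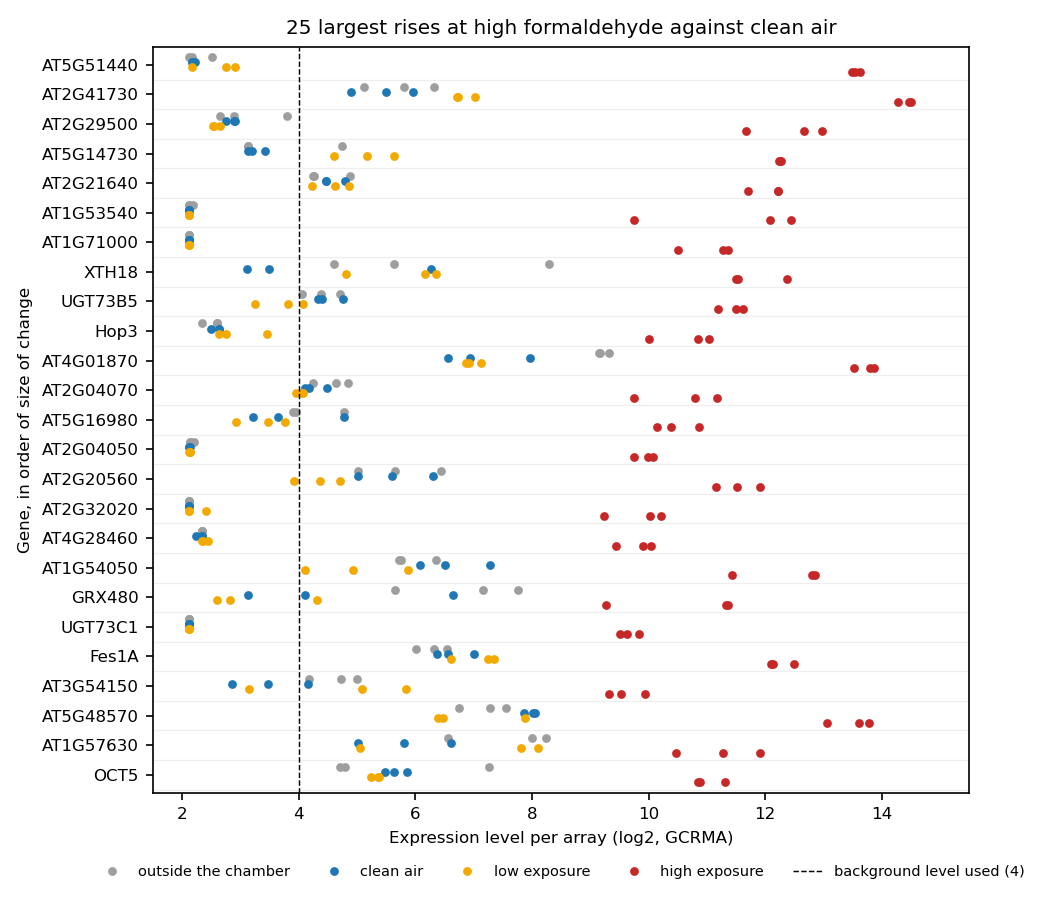
Level of the 25 genes with the largest rises (horizontal axis, log2) on each of the 12 arrays, 1 point per plant, coloured by condition; the dashed line is the background level of 4. The red high-exposure points lie to the right of the points of the other 3 conditions at each of these genes. Against clean air the rule for choosing the genes asked for this. At AT5G14730 and AT2G41730 the low-exposure points lie to the right of the clean-air points.

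Other genes of protein quality control went both ways. Of 4 tested genes grouped by symbol as chaperonins, 1 rose and 2 fell. The gene not called, CPNIFS, was matched by its symbol alone and is not a chaperonin. The called Cpn60 genes encode chaperonin subunits, which fold proteins inside a barrel in the plastid. Cpn60beta4 read 7.87, 8.06 and 7.65 in clean air and 6.56, 6.48 and 6.49 at high exposure. Cpn60beta2 rose by 1.08 ± 0.35, a call lost without high-exposure replicate 1 or 2 or clean-air replicate 2 or 3, without a filter and with spike-in scaling (0.91, adjusted p = 0.0608). Cpn60beta3 differed by -0.51 against clean air (adjusted p = 0.0432), a call lost without any of 5 of the 6 plants, and by 0.83 against plants outside the chamber.

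Of 5 tested genes for folding in the endoplasmic reticulum, DER1 rose by 0.97 ± 0.14 and DER2.1 fell by 0.62 ± 0.14, both linked to the export of misfolded proteins for destruction. The proteasome subunit gene RPN12a read 10.98, 10.67 and 10.52 in clean air and 10.67, 10.81 and 10.43 at high exposure, and its groups overlapped (difference -0.09 ± 0.18). Of 8 tested U-box ubiquitin ligase genes 4 rose and none fell. Only 2 rose without high-exposure replicate 2 or 3 or clean-air replicate 1 or 2, without a filter or with spike-in scaling, and 1 against outside plants. PUB22, a regulator of immune and drought responses, rose by 2.92 ± 0.64 (3.53 without clean-air replicate 3), and PUB24 rose by 0.97 ± 0.26. The PUB24 call was lost with spike-in scaling (0.80, adjusted p = 0.0564) and against outside plants (0.13, adjusted p = 0.694). PUB23 read 4.09, 5.94 and 10.29 in clean air and 9.06, 10.39 and 10.56 at high exposure, so that clean-air replicate 3 lay among the exposed plants. Its difference of 3.23 was 4.98 without clean-air replicate 3 and 1.89 without clean-air replicate 1, where the call was lost, as it was in 5 of 6 fits with 1 plant fewer. Against outside plants PUB23 differed by 2.44 and was not called (adjusted p = 0.11).

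Autophagy delivers damaged material to the vacuole, and ATG8 proteins coat its membranes. Of 11 tested genes 2 rose, 3 fell and 6 were not called, and the called ones were all of the ATG8 family. Against outside plants 1 of the 11 fell. ATG8H read 6.95, 7.10 and 6.78 in clean air and 8.57, 8.69 and 8.87 at high exposure, and ATG8E rose by 1.74 ± 0.21. In the same plants ATG8F read 12.16, 12.61 and 12.44 in clean air and 11.23, 11.61 and 11.87 at high exposure. The groups of plants did not overlap at any of these 3 genes.

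A list of genes that follow mitochondrial dysfunction in Arabidopsis held 9 tested members, of which 8 rose. Several members were known from earlier results of these data, and 4 were not above background in clean air, so the count describes the list and supports nothing. AT2G21640, a marker of oxidative stress, read 4.79, 4.46 and 4.46 in clean air and 12.22, 11.70 and 12.22 at high exposure, a rise of 7.47 ± 0.24 (adjusted p = 2.09e-09). AT5G43450, related to 2-oxoglutarate-dependent oxygenases, read 7.99, 9.08 and 9.24 against 13.94, 13.89 and 13.75. NDB2, an NAD(P)H dehydrogenase on the outer face of the inner mitochondrial membrane, rose by 2.77 ± 0.44. The related plastid and mitochondrial enzyme gene NDC1 fell by 0.82 ± 0.18.

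Other members had steep rises. AT5G14730 read 3.42, 3.19 and 3.13 in clean air and 12.24, 12.25 and 12.28 at high exposure. AT2G41730 read 5.50, 5.95 and 4.89 against 14.50, 14.47 and 14.28. Its probe set carries a suffix for probes that can bind other transcripts, so its signal may be shared. AT2G32020, an acetyltransferase of the GNAT family, was at 2.11 in every clean-air plant and read 9.23, 10.03 and 10.22 at high exposure. AT1G13340 was not called, at 3.21, 3.27 and 4.41 against 3.21, 5.76 and 5.28, and it was called without high-exposure replicate 1 (adjusted p = 0.0124).

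UDP-glycosyltransferases attach sugars to hormones, flavonoids and foreign compounds. Of 51 probe sets 27 were tested, of which 9 rose, 12 fell and 6 were not called, with a median difference of -0.35. Among the 9 rises, UGT73C1 and UGT73B4 passed the filter only through the high-exposure arrays, so their rises were near fixed in advance. The largest rises were in genes named UGT73. UGT73B5 read 4.40, 4.75 and 4.33 in clean air and 11.18, 11.50 and 11.61 at high exposure. UGT73C1 was at 2.11 on all clean-air arrays and read 9.51, 9.63 and 9.83, and UGT73B4 read 2.14, 2.13 and 2.14 against 7.45, 8.93 and 8.80. These 3 genes were not above, or barely above, background in clean air. UGT73B1, chosen after its values were seen, rose by 3.73. Close relatives may share signal on short probes.

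No fall was in a gene named UGT73, but subfamilies with falls also held rises. UGT71B6, UGT71C5 and UGT85A2, chosen after their values were seen, rose by 2.40, 1.06 and 0.89. UGT78D1, which adds rhamnose to flavonols, read 10.87, 10.41 and 10.95 in clean air and 6.91, 7.76 and 7.42 at high exposure, and fell by 3.38 ± 0.35. UGT71B1 fell by 2.56 ± 0.25 and UGT85A5 by 2.52 ± 0.47. At UGT78D1, UGT71B1 and UGT85A5 the groups were apart. The rises and falls were of unequal size: the largest fall in the family was smaller than the 4 largest rises.

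**Figure D3:**
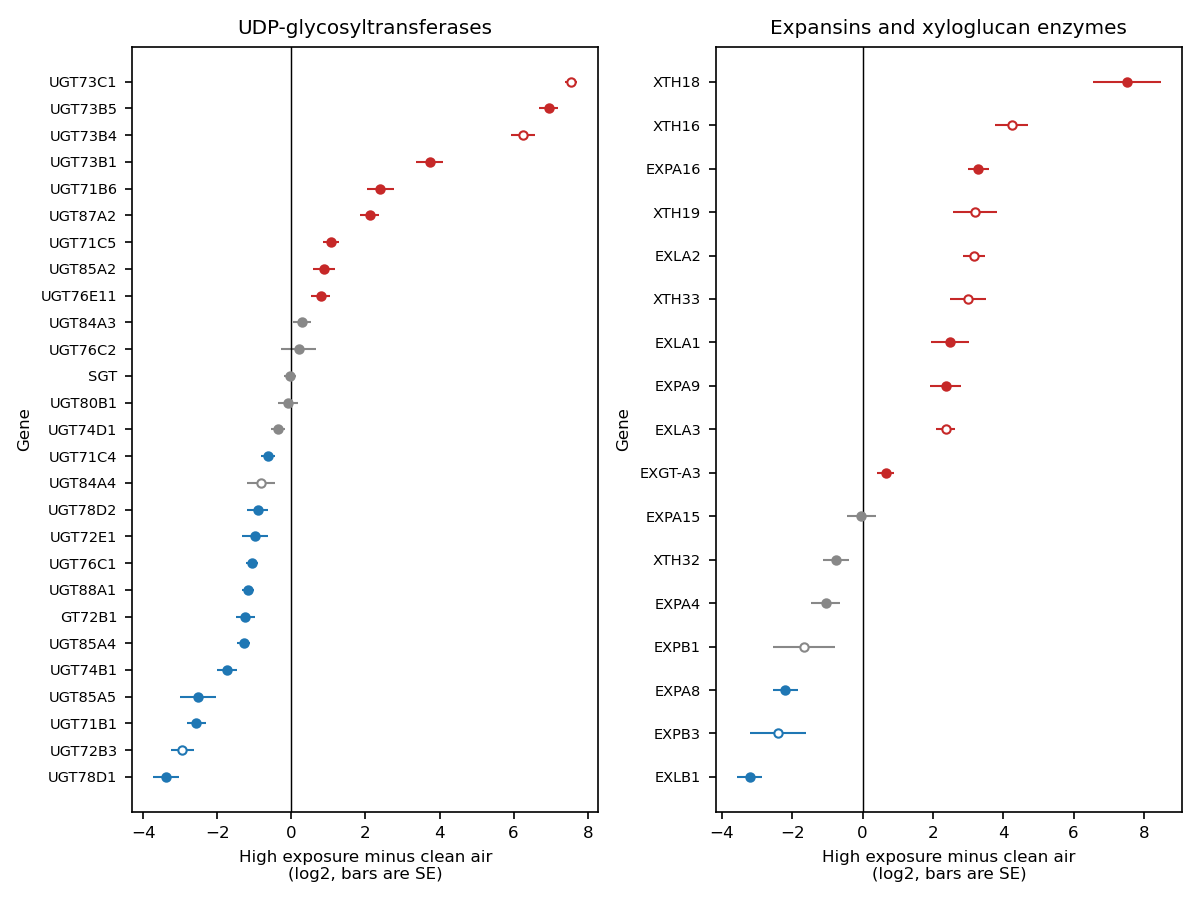
Difference between high exposure and clean air (horizontal axis, log2; bars are the SE of the fit) for the 27 tested UDP-glycosyltransferase genes and the 17 tested genes of wall loosening and xyloglucan enzymes; red marks called rises, blue called falls and grey genes not called. Open circles have a group mean below the background level of 4, so their positions are not exact sizes; UGT73B5 and XTH18 lie farthest to the right among filled circles.

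Glutathione transferases conjugate electrophiles to glutathione. Of 13 probe sets 7 were tested. All 7 were called, 2 as rises and 5 as falls (1 rise among those that passed the filter at a level of 6). The GSTU25 probe set passed the filter only through the high-exposure arrays, so its rise was near fixed in advance. GSTU25 was at 2.11 on all clean-air arrays and read 7.44, 9.89 and 9.16 at high exposure, with replicate 1 the lowest. It was at least 28.5-fold higher, and at least 46.1-fold without that plant. GSTF4 rose by 1.48 ± 0.39. In contrast GSTU20 read 12.61, 12.10 and 12.60 in clean air and 9.25, 10.60 and 10.46 at high exposure, and GSTU27 fell by 2.06 ± 0.21. The groups did not overlap at any of these 4 genes.

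AER, an NADPH-dependent alkenal reductase that acts on reactive carbonyls, read 7.87, 8.21 and 8.13 in clean air and 12.83, 12.47 and 12.39 at high exposure (4.49 ± 0.19). Its neighbour on chromosome 5, AT5G16980, a related dehydrogenase gene, read 3.21, 3.64 and 4.78 against 10.15, 10.39 and 10.86. The MATE efflux transporter genes AT2G04050 and AT2G04070 both rose. AT2G04050 read 2.13, 2.12 and 2.11 against 9.75, 10.07 and 9.98, and AT2G04070 read 4.49, 4.17 and 4.10 against 9.74, 11.17 and 10.79. OCT5, a carrier of organic cations, read 5.64, 5.86 and 5.48 against 11.32, 10.86 and 10.88. AT3G26590, another MATE gene, fell by 3.66 ± 0.53. AT5G52050, also a MATE gene, was not called, at 2.11, 2.26 and 7.96 in clean air and 3.43, 6.41 and 6.70 at high exposure (adjusted p = 0.431). It was called without clean-air replicate 3 (adjusted p = 0.0174).

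Cytochromes P450 oxidise many small molecules, and aldehyde dehydrogenases turn aldehydes into acids. Of 13 tested P450 genes, most of them of the CYP71B subfamily, 2 rose and 8 fell. Falls numbered 5 without high-exposure replicate 1 or 3 or clean-air replicate 3 and without a filter, and 1 gene rose without high-exposure replicate 1 or 2 or clean-air replicate 3, without a filter, with the filter at a level of 6 and against outside plants. CYP71B28 read 9.52, 9.59 and 9.80 in clean air and 6.93, 7.49 and 7.46 at high exposure. CYP71B24 fell by 3.18 ± 0.63, and by 2.37 without high-exposure replicate 1, its lowest plant. CYP84A4 rose by 1.14 ± 0.22, and CYP71B22 by 1.85 ± 0.62, a call lost without high-exposure replicate 1 or 2 or clean-air replicate 3 (difference 1.18 without the last) and against outside plants (0.43). CYP71B26 differed by -1.57, a call lost without any 1 of the 6 plants, and by -0.04 against outside plants. Of 8 tested aldehyde dehydrogenase genes 5 fell and none rose. ALDH3F1 read 10.00, 9.94 and 9.53 against 8.14, 8.32 and 8.18, and ALDH11A3, the cytosolic non-phosphorylating glyceraldehyde phosphate dehydrogenase, fell by 1.48 ± 0.25. ALDH10A8, of betaine aldehyde oxidation, fell by 1.15 ± 0.17.

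Among 9 tested genes of formate oxidation and folate one-carbon metabolism there were 6 falls and no rise, with a median difference of -0.89. FDH, formate dehydrogenase, read 11.87, 12.99 and 13.08 in clean air and 11.50, 11.84 and 11.78 at high exposure. Clean-air replicate 1 was as low as the highest exposed plants, and the difference of -0.94 was not called (adjusted p = 0.087). Without that plant FDH differed by -1.33 (adjusted p = 0.0254). With all plants kept, FDH was called from the 6 arrays alone (-0.94, adjusted p = 0.0451). It was also called with spike-in scaling (-1.11, adjusted p = 0.0317) and with array weights (-1.01, adjusted p = 0.00668).

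The glycine decarboxylase subunit genes serve the release of one-carbon units in photorespiring mitochondria. AT1G11860, the T-protein, read 13.16, 12.96 and 12.99 against 11.68, 11.97 and 12.15, and AT1G32470, an H-protein, read 13.24, 12.93 and 12.80 against 11.89, 12.08 and 12.04. AT2G35120, another H-protein gene, was not called at -0.24 ± 0.34. Of the folate enzymes AT3G12290 fell by 0.56 ± 0.14, 5-FCL by 1.02 ± 0.19 and AT5G47435 by 0.89 ± 0.14. AT4G17360 fell by 0.79 ± 0.28, a call lost without high-exposure replicate 2 or clean-air replicate 2 or 3. AT2G38660, a folate dehydrogenase and cyclohydrolase gene, was not called and read 7.45, 7.45 and 7.48 against 7.49, 7.47 and 7.45.

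**Figure D4:**
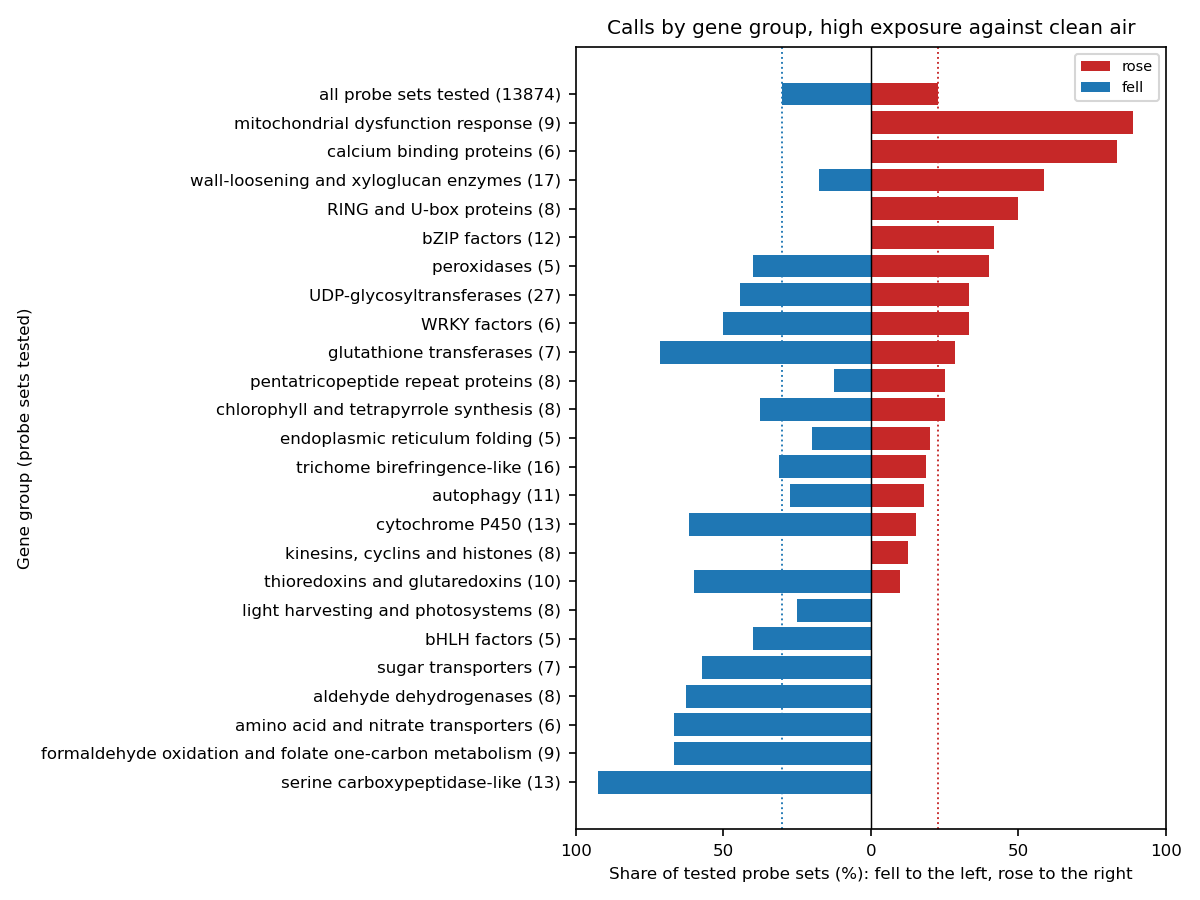
Share of tested probe sets that rose (right, red) or fell (left, blue) in each gene group with at least 5 tested members (number tested in brackets); the horizontal axis is the percentage of tested probe sets and dotted lines mark the shares over all probe sets, 22.8% and 30.1%. Serine carboxypeptidase-like genes, with 12 of 13 falls, lie at the bottom. The tested genes of the group labelled amino acid and nitrate transporters are all of the nitrate and peptide transporter family.

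Genes of the cell wall went both ways. Xyloglucan endotransglucosylase/hydrolases (XTH) cut and rejoin xyloglucan, and expansins loosen wall polymers. Of 17 tested genes of these kinds 10 rose and 3 fell (5 fell with array weights or against outside plants). At 1 of the 10 rises the probe set passed the filter only through the high-exposure arrays, so that rise was near fixed in advance. XTH18 read 3.49, 3.11 and 6.27 in clean air and 11.54, 11.50 and 12.38 at high exposure. Its clean-air plants spread widely. With values below 4 raised to 4 it rose 132-fold, and at least 224-fold without clean-air replicate 3. XTH16 read 4.76, 4.05 and 2.59 against 8.67, 7.85 and 7.59, and it rose by 3.77 with values below 4 raised to 4. At low exposure XTH16 was already at 7.89 ± 0.40 (SD, n = 3), and high minus low was 0.15 and not called (adjusted p = 0.82).

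The control mattered for the expansin gene EXPA16. It read 3.88, 4.08 and 4.15 in clean air and 7.87, 7.34 and 6.77 at high exposure, but plants outside the chamber were at 7.45 ± 0.54, and against them the difference was -0.12. Among the falls, EXLB1 read 9.24, 8.66 and 8.41 against 5.65, 5.46 and 5.59, and EXPA8 fell by 2.19 ± 0.37. EXPB3 was called as a fall, a call lost without a filter and in 4 of 6 fits with 1 plant fewer.

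Pectin methylesterases remove methyl groups from pectin. Of 4 tested pectin enzyme genes 3 fell. PMEPCRF read 11.32, 10.73 and 11.03 against 8.76, 9.40 and 9.14, and PMEAMT fell by 1.57 ± 0.20. PME61 fell by 1.57 ± 0.49, a call lost without high-exposure replicate 1 or 3 or clean-air replicate 1, without a filter, with array weights (-0.69) and against outside plants (-0.89). Trichome birefringence-like (TBL) proteins acetylate wall polysaccharides, and of 16 tested probe sets 3 rose, 5 fell and 8 were not called. AT2G31110 was counted through a probe set that rose by 0.74 and through another that was not called (0.22, adjusted p = 0.347). TBL26 read 9.54, 9.37 and 9.82 in clean air and was below background in every exposed plant, at 3.30, 3.96 and 3.55, at least 47.8-fold lower. TBL25 fell by 2.34 ± 0.16. TBL32, measured by a probe set that may be shared with other transcripts, rose by 1.22 ± 0.16. TBL37 rose by 0.59 ± 0.13, whereas with spike-in scaling it was not called (0.42, adjusted p = 0.0881) and against outside plants it differed by -0.08. Of 8 tested kinesin, cyclin and histone genes 1 was called, the histone gene HTB1 (0.62 ± 0.21), and that call was lost in 4 of 6 fits with 1 plant fewer, without a filter, with spike-in scaling and against outside plants (0.38, adjusted p = 0.14).

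Calcium-binding proteins of the calmodulin-like (CML) family translate calcium pulses. Of 6 tested genes 5 rose and none fell. CML38 read 5.74, 7.19 and 11.93 in clean air and 12.90, 13.20 and 13.81 at high exposure. CML37 read 2.16, 2.16 and 8.10 against 7.65, 10.14 and 10.69, so that its groups overlapped through clean-air replicate 3. CML38 differed by 5.02, by 6.84 without that plant and by 3.74 without clean-air replicate 1. With values below 4 raised to 4, CML37 differed by 4.13, by 3.44 without clean-air replicate 1 or 2, by 5.05 without high-exposure replicate 1 and by 3.53 without high-exposure replicate 3. Without clean-air replicate 3 it was at least 45-fold higher. CML30 had no such plant: it read 8.00, 7.76 and 6.95 against 10.77, 10.17 and 10.34, and rose by 2.85 ± 0.35.

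Of the transcription factor families, bZIP genes gave 5 rises and no fall among 12 tested. With array weights 6 rose and 4 fell, and with spike-in scaling 4 rose and 2 fell. There was 1 fall without a filter, from the 6 arrays alone and against outside plants, with 4 rises in the last. BZIP60, which is activated when proteins misfold in the endoplasmic reticulum, read 9.52, 9.78 and 10.56 in clean air and 12.85, 12.96 and 12.93 at high exposure. BZIP53, a factor of the low-energy response, read 10.41, 10.50 and 10.27 against 12.54, 12.60 and 12.88 (2.28 ± 0.12, adjusted p = 1.77e-07). bZIP52 was not above background in clean air and was at least 4.28-fold higher. The exposed plants lay close together at all of them.

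WRKY genes were mixed, with 2 rises and 3 falls among 6 tested. WRKY6, linked to senescence and defence, read 5.71, 6.07 and 6.19 against 8.77, 9.68 and 9.04. WRKY22 differed by 1.86, a call lost in 4 of 6 fits with 1 plant fewer, with 2.68 without clean-air replicate 3 and 1.26 without clean-air replicate 1. That call was also lost without a filter, from the 6 arrays alone and against outside plants (1.01, adjusted p = 0.189), which leaves WRKY6 as the rise in those fits. WRKY47 fell by 1.12 ± 0.29. STZ, a zinc finger repressor of stress responses, read 10.34, 10.35 and 12.50 in clean air and 13.36, 13.68 and 13.53 at high exposure, and its difference of 2.46 was 3.18 without clean-air replicate 3. ORA47, an ethylene response factor of the jasmonate pathway, read 7.91, 9.92 and 11.62 against 5.10, 6.39 and 6.16. Its difference of -3.93 was -4.89 without clean-air replicate 1 and -3.03 without clean-air replicate 3, and against outside plants it was -1.88 and was not called (adjusted p = 0.159). IAA29, an auxin repressor, read 7.48, 9.47 and 5.69 against 4.21, 3.22 and 3.43. With values below 4 raised to 4, IAA29 differed by -3.48, by -2.51 without clean-air replicate 2 and by -4.40 without clean-air replicate 3.

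Thioredoxins and glutaredoxins reduce disulfide bonds in other proteins. Of 10 tested thioredoxin and glutaredoxin genes 1 rose and 6 fell, and 3 fell without any 1 of the high-exposure plants or without clean-air replicate 3. The rise was GRX480, a glutaredoxin of salicylic acid signalling, at 4.11, 3.12 and 6.65 in clean air and 9.27, 11.33 and 11.36 at high exposure. With values below 4 raised to 4, its difference was 5.73, 6.60 without clean-air replicate 3 and 6.42 without high-exposure replicate 1. The falls included the plastid enzymes NTRC and TRXF2, which relay reducing power to photosynthetic enzymes. NTRC fell by 0.95 ± 0.21. TRXF2 read 11.66, 11.43 and 11.58 against 10.32, 10.62 and 11.12. Of 5 tested peroxidase genes 2 rose and 2 fell, and 1 fell without high-exposure replicate 1 or 2 or clean-air replicate 1 or 2, or without a filter. AT5G64120 rose by 3.01 ± 0.40, and PRXR1 read 14.81, 15.07 and 15.21 in clean air and 13.35, 13.56 and 13.73 at high exposure.

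The Calvin cycle fixes carbon dioxide, and 4 of 4 tested genes were called as falls. SBPASE, sedoheptulose bisphosphatase, read 13.77, 13.42 and 13.42 in clean air and 12.01, 12.19 and 12.36 at high exposure. PRK, phosphoribulokinase, fell by 1.14 ± 0.18 and AT1G56190, a phosphoglycerate kinase, by 1.19 ± 0.25. RCA, rubisco activase, differed by -0.26 ± 0.08, a call lost without clean-air replicate 1 or high-exposure replicate 1, without a filter (adjusted p = 0.168), with quantile normalization (-0.17, adjusted p = 0.12), with spike-in scaling (-0.43, adjusted p = 0.0729), from the 6 arrays alone and without the mean-variance trend. In photorespiration HPR, hydroxypyruvate reductase, read 13.50, 13.42 and 13.46 against 11.99, 12.16 and 12.38, whereas AT1G80380, glycerate kinase, was not called (-0.36 ± 0.17, adjusted p = 0.0904).

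Light harvesting feeds the photosystems. Of 8 tested genes of light harvesting and the photosystems 2 fell and 6 were not called. LHCB4.3, a minor antenna protein, read 11.08, 10.27 and 10.44 against 7.82, 8.62 and 8.26. PSB27, of photosystem II assembly, fell by 0.48 ± 0.11. Of 8 tested genes of chlorophyll and tetrapyrrole synthesis 2 rose and 3 fell, with 1 fall without clean-air replicate 1 and 1 rise against outside plants. HEMA2, which makes the precursor of all tetrapyrroles, read 6.21, 6.28 and 6.67 against 7.36, 8.72 and 8.66, but differed by 0.87 from outside plants and was not called there (adjusted p = 0.0711). CHLM, magnesium protoporphyrin methyltransferase, fell by 0.79 ± 0.16. CHLI2 fell by 0.55 ± 0.16 (call lost without clean-air replicate 1), and HEME1 differed by -0.39, a call lost in 5 of 6 fits with 1 plant fewer.

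Sugar made in the leaf is exported as sucrose. SWEET13, a sucrose exporter of the phloem, read 7.62, 7.62 and 9.21 in clean air and 3.40, 2.94 and 2.86 at high exposure, at least 17.75-fold lower. ATSPS4F, sucrose phosphate synthase, read 10.54, 10.36 and 10.12 against 4.67, 6.72 and 6.79, and fell by 4.28 ± 0.86, or by 3.59 without high-exposure replicate 1. Of 7 tested sugar transporter genes 4 fell and none rose. Of 6 tested genes of the nitrate and peptide transporter family 4 fell and none rose. AT3G21670, of the nitrate and peptide transporter family, read 10.73, 10.15 and 10.91 against 5.97, 7.58 and 8.08, and fell by 3.38 ± 0.50, or by 2.76 without high-exposure replicate 1. AT2G26690 of the same family fell by 2.16 ± 0.15.

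The serine carboxypeptidase-like family, which holds vacuolar proteases and acyltransferases, had the highest share of falls among groups of at least 5 tested genes. Falls were called at 12 of 13 tested members and rises at none, with a median difference of -1.12, and a further 16 of its 29 probe sets were not tested. The gene scpl46 read 9.80, 9.34 and 9.55 in clean air and 6.93, 7.43 and 7.34 at high exposure. Likewise scpl35 read 9.42, 9.20 and 9.37 against 6.82, 7.45 and 7.01, and scpl50 fell by 1.95 ± 0.19. The groups were apart at these 3 genes. At low exposure scpl35 was at 7.12 ± 0.39 and scpl50 at 8.24 ± 0.14 (SD, n = 3).

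**Figure D5:**
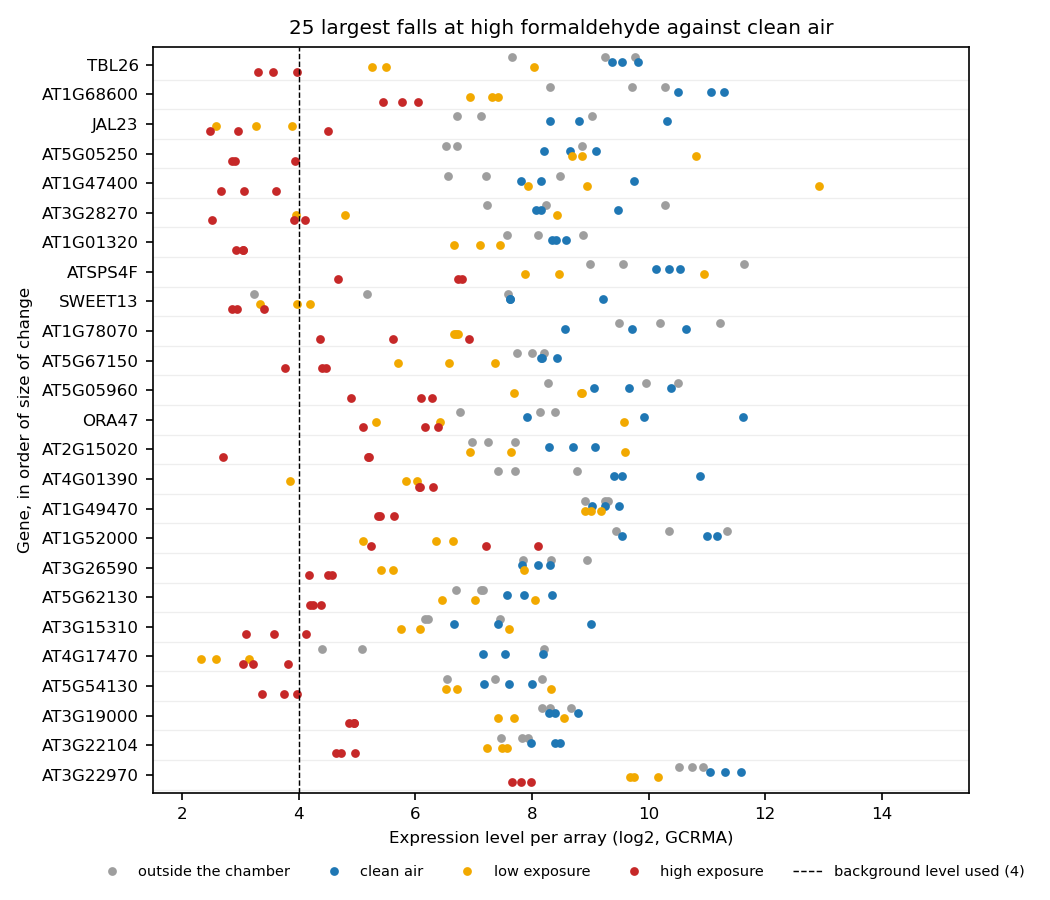
Level of the 25 genes with the largest falls (horizontal axis, log2) on each of the 12 arrays, 1 point per plant, coloured by condition; the dashed line is the background level of 4. High-exposure points lie to the left of the clean-air points at each gene, which the rule for choosing the genes asked for. Low-exposure points lie at either side or between, as at JAL23 and AT1G49470.

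Several of the largest falls had no family above. JAL23, a jacalin-related lectin, read 8.30, 8.81 and 10.31 in clean air and 2.48, 2.96 and 4.49 at high exposure, and fell by 4.98 with values below 4 raised to 4, or by 4.39 without clean-air replicate 3. AT1G68600, of the malate-transporter family, read 10.50, 11.08 and 11.29 against 5.45, 5.77 and 6.04. AT1G47400, which encodes the iron-deficiency peptide IMA1, read 8.15, 7.81 and 9.75 against 2.67, 3.60 and 3.06, at least 23.8-fold lower, or at least 15.8-fold without clean-air replicate 3. All exposed plants were below background at AT1G47400. AT1G01320 read 8.58, 8.42 and 8.33 against 3.04, 2.92 and 3.04, and AT5G05250 read 9.10, 8.21 and 8.65 against 2.85, 3.93 and 2.91. AT3G22970 kept a measurable level, at 11.06, 11.30 and 11.58 against 7.66, 7.81 and 7.98. The plants of a group lay within 1 log2 unit of each other at it.

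Single plants also shifted some of these falls. Without high-exposure replicate 1, AT1G78070 fell by 3.37 in place of 4.00. The difference of AT1G52000, a jacalin lectin, was -3.72, with -2.91 without high-exposure replicate 1 and -4.34 without replicate 3. Without high-exposure replicate 3 AT1G78070 fell by 4.65. With values below 4 raised to 4, AT3G15310 differed by -3.65, and by -2.99 without clean-air replicate 1. Each of the 25 largest rises and 25 largest falls kept its call in all 6 fits with 1 plant fewer. They were chosen from the same plants as called, with separate groups and the largest sizes, so this is no separate support. The rank of a gene depends on a narrow margin at the end of each list. OCT5, the last rise included, and EXO, the next, differed by 5.36 and 5.27, and AT3G22970 and IAA29, at the same place among the falls, by -3.50 and -3.48 (with values below 4 raised to 4).

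The comparison with low exposure uses the same high-exposure arrays, so it is not independent of the comparison with clean air, and its values are given beside the others. At all 25 largest rises every exposed plant of the high group lay above every low-exposure plant. The level of AT5G51440 at low exposure was 2.61 ± 0.40, and those of AT2G29500, UGT73B5 and AT2G21640 were 2.57 ± 0.07, 3.71 ± 0.42 and 4.57 ± 0.31 (SD, n = 3). AT5G14730 was at 5.13 ± 0.52 and AT2G41730 at 6.82 ± 0.17, each above all its clean-air plants, and both were called against clean air (adjusted p = 0.00816 and 0.0104).

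Among the 25 largest falls the same separation held at 17. At the others the plants of both doses overlapped. JAL23 was at 3.24 ± 0.66 at low exposure, SWEET13 at 3.83 ± 0.45, AT4G01390 at 5.24 ± 1.20, AT4G17470 at 2.68 ± 0.43 and AT1G52000 at 6.03 ± 0.82. JAL23, SWEET13 and AT4G17470 were below background on average at both doses, so their doses could not be compared. High minus low was 0.91 at AT4G01390 and 0.82 at AT1G52000 and was not called (adjusted p of 0.21 and 0.38), which does not show equal levels. In contrast AT1G49470 was at 9.03 ± 0.14 at low exposure, close to its 9.49, 9.03 and 9.25 in clean air, and read 5.39, 5.63 and 5.36 at high exposure. AT5G05250 and AT1G47400 were likewise high at low exposure, at 9.45 ± 1.18 and 9.93 ± 2.64.

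Gene length is a property that the comparison did not use. The annotated gene, introns included, had a median length of 2361 bases among named genes tested, 2074 among rises of at least 2-fold and 2414 among falls of that size. Among the 71 named rises of at least 16-fold it was 1688 bases. The 3' minus 5' control signal given above also differed between the groups, and its part in these lengths was not tested. Of 2292 pairs of neighbouring genes that were both named and tested, 7 moved the same way by at least 8-fold at both genes. The rises were UGT73B5 with UGT73B4, AT2G32020 with AT2G32030, AER with AT5G16980, AT4G27652 with AT4G27654, AT5G10820 with AT5G10830 and AT5G22530 with AT5G22540. The only falls were AT5G62130 with AT5G62140. AT2G32030, of the same acetyltransferase family as its neighbour, was at 5.95 in clean air and 11.15 at high exposure. Of 67 tested probe sets of plastid genes 21 rose and 14 fell.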

How the data were processed

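Values are the deposited log2 expression values, which the authors obtained with GCRMA background correction and normalization, per the submitters' processing notes. Its version and options were not given in the sources used here. The log2 scale was read from the range of the values. Affymetrix control probe sets (64) were left out, and 13874 of 22746 probe sets, those above 4 on at least 3 of 12 arrays, were tested with limma 3.58.1 in R 4.3.3 (lmFit with 4 group means, eBayes with a mean-variance trend), with Benjamini-Hochberg adjustment over all of them. If no array of a group exceeded 4, a fold change is a bound computed from the level 4. Arrays number 3 per group, which limits the precision. The fit was tested on simulated data. Plots were made with matplotlib 3.10.9 (Python 3.11.15).

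Genes were named through the array's annotation table and the RefSeq annotation of TAIR10.1, and gene groups were defined by symbol or locus. The members and lists were chosen with earlier results of these data known. The rule named the 25 largest rises and 25 largest falls among called probe sets of 1 gene with separate groups, up to 3 called members per direction of each gene group (up to 2 where none was called), and every member of the locus lists. Protein length, promoter motifs and exon counts were not analysed here. Alternatives were other filters, scalings, variance models, controls and plants left out.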

Additional observations from a re-analysis of the deposited data

How the results depend on the processing

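The count of changed probe sets, 7337, stayed within 1.5 times of itself under every alternative fit. It was 6860 without a filter, 6695 with a filter at a level of 6, 7228 with values below 4 raised to 4, 7400 with quantile normalization, 6863 with spike-in scaling, 7243 from the 6 arrays alone, 7304 without a mean-variance trend, 9425 with array weights and 7646 against plants outside the chamber. With 1 plant left out it lay between 6247 and 6720, with 2694 to 2961 rises and 3514 to 3869 falls. Requiring a change of at least 2-fold left 4039, of which 1784 rose and 2255 fell. A pairing of plants by replicate number was not seen, but 3 plants a group cannot exclude one. Correlations of deviations were 0.19, -0.25 and 0.33 for same-numbered plants and -0.34 to 0.24 for the others. With the number as a block 7208 probe sets were called, 3122 rises and 4086 falls.

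For the 171 named genes, 2596 of 2731 alternative values kept their call, 122 lost it, 10 gained one and 3 changed sign, all 3 against plants outside the chamber: Cpn60beta3 (0.83), EXPA16 (-0.12) and TBL37 (-0.08). The cause of these changes was not tested. With 3 arrays per group small differences were often not called, and levels near 4 give only bounds.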

Other observations

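Plants outside the chamber differed from clean-air plants at some genes. PPR596, a pentatricopeptide repeat protein gene, was at 5.37 ± 0.26 outside and 7.28 ± 0.10 in clean air. AT4G01870 was at 9.21 ± 0.09 and 7.15 ± 0.73 (log2, SD, n = 3). XTH16, at 2.54 ± 0.07 and 3.80 ± 1.11, was below background on average in both groups, so its difference could not be measured. At high exposure PPR596, AT4G01870 and XTH16 read 8.62 ± 0.74, 13.73 ± 0.18 and 8.04 ± 0.56.

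Genes of translation and RNA handling went both ways. PPR596 rose by 1.34 ± 0.29 and PPR336 by 1.19 ± 0.16, while CRR21, which edits a plastid transcript, fell by 1.29 ± 0.38 (by 0.92 without high-exposure replicate 1, where the call was lost, as it was against outside plants at -0.78). The helicase gene RH39 fell by 1.05 ± 0.20 and the alanyl-tRNA synthetase gene ALATS by 0.70 ± 0.10.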
